A study of Mus musculus with 9 samples.

Results

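The 10 genes described here are the muscle atrophy ligases Trim63, Fbxo32, Fbxo30 and Fbxo40, the transcription factors Foxo1 and Foxo3, and Eif4ebp1, Sesn1, Bnip3 and Map1lc3a, which act on translation, growth signalling and autophagy. They were chosen by gene symbol, though with earlier results of these data known, out of 15593 symbols in the deposited table. All 10 were found, in 20 of the 46442 sequence records, and all 10 were among the 15372 genes tested. Polyadenylated RNA of mouse gastrocnemius, the large calf muscle, was sequenced from vehicle-treated wildtype mice (3 libraries), vehicle-treated mdx mice (3) and mdx mice that received 10 mg/kg GTx-026 subcutaneously (3). Mutant dystrophin (Dmd) makes the mdx mouse a model of Duchenne muscular dystrophy, and the title of the series places GTx-026 among androgen receptor agonists. All 9 libraries carry the strain label C57BL/6, and the labels give neither age nor sex, nor length of treatment. Which animal a library came from is not labelled either, so p-values reflect only how far these libraries differ among themselves, and a library's number is only a name.

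Muscle fibres lose protein through the ubiquitin-proteasome system and through autophagy. FoxO transcription factors drive both: insulin and IGF signalling through the kinase Akt keeps them out of the nucleus, and when that signal drops they enter it and switch on the ligases MuRF1 (Trim63) and atrogin-1 (Fbxo32) together with autophagy genes. Akt also drives the mTOR complex that promotes protein synthesis, which the sestrins restrain and whose substrate 4E-BP1 (Eif4ebp1) holds back cap-dependent translation. Glucocorticoids raise the same ligases in muscle, and androgens oppose muscle loss.

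FoxO factors act on their targets through a short DNA motif, so the promoters of these genes that hold it are printed. RefSeq windows on GRCm38.p6, from 250 bases before to 50 bases after a start site, were given for 7 of the 10 genes, in 9 promoters. Fbxo32, Eif4ebp1 and Map1lc3a had no window, so their promoters were not searched. The FoxO site searched was GTAAACA on either strand, and it stood in 1 promoter of Trim63 and 1 of Sesn1. Of all 32851 promoters of the same length, 3.65% held it. The lines below run 5′ to 3′ along the gene, with capitals for the motif matches other than E-boxes.
Trim63, chr4:134314870-134315169, plus strand: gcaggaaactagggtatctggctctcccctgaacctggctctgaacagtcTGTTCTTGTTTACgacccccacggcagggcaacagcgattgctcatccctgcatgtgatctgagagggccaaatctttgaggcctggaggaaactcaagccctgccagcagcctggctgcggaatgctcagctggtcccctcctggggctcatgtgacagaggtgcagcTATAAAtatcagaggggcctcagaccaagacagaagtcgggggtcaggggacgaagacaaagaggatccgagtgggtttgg
Sesn1, first of 2 promoters, chr10:41810324-41810623, plus strand: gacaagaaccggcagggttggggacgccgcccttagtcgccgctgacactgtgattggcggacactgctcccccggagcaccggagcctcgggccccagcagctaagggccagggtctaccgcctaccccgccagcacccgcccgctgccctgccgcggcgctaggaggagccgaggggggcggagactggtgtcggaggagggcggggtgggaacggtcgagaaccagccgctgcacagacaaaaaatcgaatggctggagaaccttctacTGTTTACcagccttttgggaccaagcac
In the Trim63 window the FoxO match, read here as TGTTTAC, lay 194 to 188 bases before the start site. It directly followed a steroid receptor half-site, AGAACA read on the other strand as TGTTCT, 200 to 195 bases before the start. A TATA box, TATAAA, lay 31 to 26 bases before the start, and 3 E-boxes, CANNTG, lay between the FoxO match and the TATA box. In the Sesn1 window the FoxO match lay 22 to 28 bases after the start site, in transcribed sequence. The half-site AGAACA was in 19% of all promoters, TATAAA in 13.6% and CANNTG in 72.3%. Fbxo40 had the half-site in 1 of its 2 promoters, 176 to 171 bases before the start. Neither the full palindromic steroid receptor site, made of 2 such half-sites, nor the insulin response site CAAAACA, on either strand, was in any of the 9 promoters. These are matches of letters, and the data hold no measurement of binding.

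Library size and tissue makeup bear on every value that follows. Levels are counts per M (mega) counts of the library (CPM), rescaled between libraries as described under the processing, and the reads behind the libraries were estimated at 25.1 M to 38 M each. Dmd was at 50.8 ± 9.3 CPM (SD, n = 3) in wildtype vehicle, 18.3 ± 5.97 in mdx vehicle and 16.6 ± 2.07 in mdx GTx-026 muscle, with no overlap between wildtype and either mdx group. All 10 skeletal muscle fibre markers were measured, and their summed level was 172000 to 218000 CPM in wildtype vehicle, 118000 to 166000 in mdx vehicle and 133000 to 210000 in mdx GTx-026 libraries, so the defining markers of the labelled tissue were present. The 9 measured of 10 macrophage markers summed to 30.8 to 77.5, 98.7 to 809 and 262 to 377 CPM in the same order, and all 9 were higher in mdx vehicle than in wildtype. The 8 fibro-adipogenic markers summed to 522 to 770, 776 to 1580 and 1060 to 1680 CPM, and the 7 endothelial markers to 155 to 280, 127 to 200 and 128 to 246 CPM. The mdx vehicle library 1 stood apart: it had the highest macrophage sum, 809 CPM, the lowest fibre sum, 118000 CPM, the lowest slow-fibre sum, 400 CPM, and the largest rescaling factor, 1.3. It was also the lowest of the 9 libraries for 7 of the 10 genes described here. Wildtype library 2 was the highest of the 9 for 5 of the 10 and had the smallest rescaling factor, 0.874. The 8 slow-fibre markers ranged widely in every group, summing to 1180 to 11300 CPM in wildtype vehicle, 400 to 9380 in mdx vehicle and 1030 to 14900 in mdx GTx-026, with the low ends of wildtype and mdx GTx-026 in their libraries 1. The 5 measured of 6 adipocyte markers summed to 110 to 1750, 108 to 852 and 219 to 965 CPM, and the 1750 CPM was that of wildtype library 1, which was also the highest library for Trim63. The part of these shifts in the results was not tested, and in whole muscle fewer cells of a type and less RNA per cell cannot be told apart.

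The ligases come first. Their levels were lower in mdx vehicle than in wildtype muscle for all 4, by 0.31 to 0.71 on the log2 scale, and none of the 4 passed the test (limma, adjusted p under 0.05) in any comparison. Of all tested genes 0.338% passed in mdx vehicle against wildtype, 0.013% in mdx GTx-026 against mdx vehicle, 1.48% in mdx GTx-026 against wildtype and 1.59% in the average of both mdx groups against wildtype. Trim63 encodes MuRF1, a RING-type ligase that ubiquitinates myosin and other thick-filament proteins, and lies on chromosome 4 from 134315120 to 134329629. Its level was 284, 225 and 189 CPM in the wildtype vehicle libraries 1 to 3, 97, 196 and 170 CPM in mdx vehicle and 213, 123 and 175 CPM in mdx GTx-026. The lowest value was that of mdx vehicle library 1, and each pair of groups overlapped. The log2 fold change was -0.63 (SE 0.29, 95% interval -1.29 to 0.02, adjusted p = 0.409, limma) in mdx vehicle against wildtype, and -0.33 without mdx vehicle library 1. Between mdx GTx-026 and mdx vehicle it was 0.17 (95% interval -0.49 to 0.82, adjusted p = 1), and it turned to -0.14 without mdx vehicle library 1 and to -0.01 without mdx GTx-026 library 1.

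Fbxo32 encodes atrogin-1, the F-box subunit of an SCF ligase that targets regulators of protein synthesis and muscle differentiation, on chromosome 15 from 58175879 to 58214932. It stood at 210, 311 and 158 CPM in wildtype vehicle, 98.5, 161 and 146 CPM in mdx vehicle and 180, 116 and 192 CPM in mdx GTx-026 muscle. The wildtype libraries spread most, from 158 to 311 CPM, and their lowest lay inside the range of both mdx groups. The log2 fold change in mdx vehicle against wildtype was -0.71 (SE 0.29, 95% interval -1.37 to -0.06), with an unadjusted p of 0.0358 and an adjusted p of 0.362 (limma). That value was -0.46 without wildtype library 2. In mdx GTx-026 against mdx vehicle it was 0.26 (95% interval -0.40 to 0.92, adjusted p = 1), with values from 0.04, without mdx vehicle library 1, to 0.48, without mdx GTx-026 library 2, when 1 library was left out. Atrogin-1 and MuRF1 messages were thus not shown to differ between any of these groups.

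Fbxo30, also called MUSA1, is an F-box ligase of the BMP arm of muscle mass control. Its level was 9.97, 11.8 and 9.38 CPM in wildtype vehicle, 6.98, 9.14 and 8.46 CPM in mdx vehicle and 8.3, 7.28 and 11.2 CPM in mdx GTx-026. Every mdx vehicle library lay below every wildtype library, by a narrow margin, as for 8.49% of all tested genes, and the treated libraries reached into both ranges. Against wildtype, mdx vehicle muscle had a log2 fold change of -0.31 (SE 0.19, adjusted p = 0.516, limma). Fbxo40, a muscle-restricted F-box protein that targets the insulin receptor substrate IRS1, stood at 356, 470 and 419 CPM in wildtype vehicle, 249, 347 and 339 CPM in mdx vehicle and 394, 309 and 327 CPM in mdx GTx-026. The mdx vehicle libraries again lay below all wildtype libraries, at a log2 fold change of -0.42 (SE 0.19, adjusted p = 0.398, limma). For treated against untreated mdx muscle the values were 0.10 (95% interval -0.32 to 0.52) for Fbxo30 and 0.15 (-0.27 to 0.57) for Fbxo40, both at an adjusted p of 1.

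**Figure D1:**
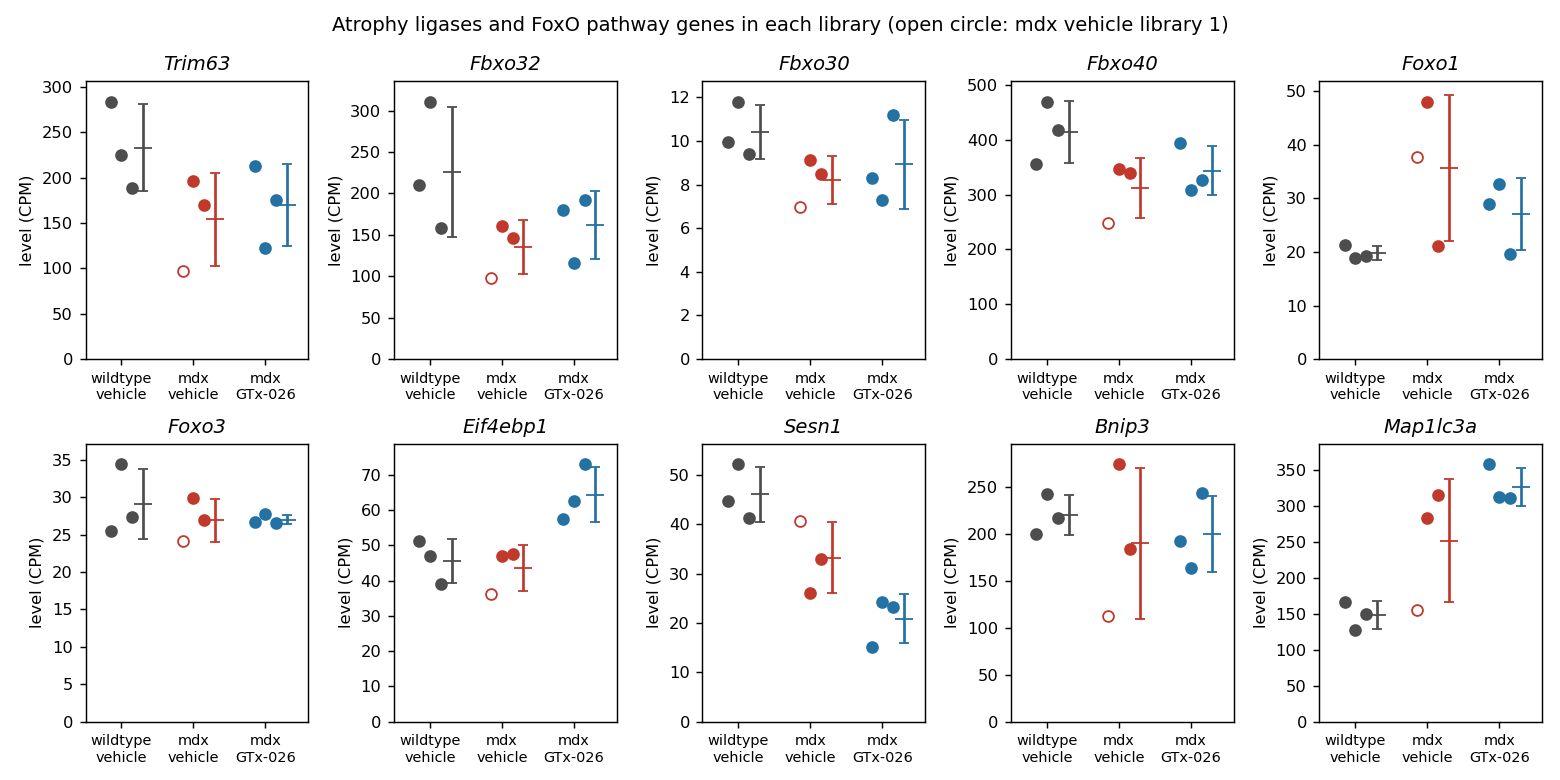
Level in CPM (vertical axis, from 0) of each of the 10 genes in the 9 libraries; points are libraries 1 to 3 of a group from left to right, bars the mean and SD, and the open circle is mdx vehicle library 1. Sesn1 steps from 46.1 to 33.3 to 20.9 CPM across the groups while Map1lc3a goes from 148 to 252 to 327 CPM, and of the ligases only Fbxo30 and Fbxo40 show groups with no overlap, mdx vehicle below wildtype.

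The transcription factors that control the ligases are regulated mainly by phosphorylation and location, which RNA does not show. Foxo1, on chromosome 3 from 52268336 to 52353221, was at 21.3, 18.9 and 19.2 CPM in wildtype vehicle, 37.7, 48.1 and 21.2 CPM in mdx vehicle and 28.9, 32.8 and 19.6 CPM in mdx GTx-026. The wildtype libraries lay close together, while in each mdx group 2 libraries were clearly higher and the third was at the wildtype level. The log2 fold change in mdx vehicle against wildtype was 0.74 (SE 0.28, 95% interval 0.11 to 1.38), with an unadjusted p of 0.0261 and an adjusted p of 0.338 (limma). Between the treated and untreated mdx groups it was -0.34 (95% interval -0.97 to 0.29, adjusted p = 1). An antisense gene, Gm20402, shares 7.78% of Foxo1's exon bases, and whether the counting used strand is not given in the sources used here.

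Foxo3, on chromosome 10 from 42181841 to 42276755, had the narrowest range of the ligases and factors. It was at 25.5, 34.4 and 27.3 CPM in wildtype vehicle, 24.1, 29.9 and 26.9 CPM in mdx vehicle and 26.7, 27.8 and 26.6 CPM in mdx GTx-026. The log2 fold change was -0.10 (95% interval -0.42 to 0.22) in mdx vehicle against wildtype and 0.01 (-0.32 to 0.33) in mdx GTx-026 against mdx vehicle (adjusted p = 0.788 and 1, limma), and the sign of both turned under the deposited scaling, to 0.08 and -0.06. The direction of Foxo1 in the same comparisons held under that scaling.

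The only call among the 10 was of a growth-signal gene. Sesn1 encodes sestrin 1, a stress protein that restrains the mTOR complex and a known FoxO and p53 target, and lies on chromosome 10 from 41809935 to 41908424. Its level was 44.7, 52.2 and 41.4 CPM in wildtype vehicle, 40.7, 26.2 and 33 CPM in mdx vehicle and 15.2, 24.3 and 23.2 CPM in mdx GTx-026 libraries. The 3 groups did not overlap. Every treated library lay below every untreated mdx library, which in turn lay below every wildtype library. The nearest pair was 41.4 and 40.7 CPM. Of all tested genes 8.49% were lower with no overlap in mdx vehicle against wildtype. The share was 3.13% in mdx GTx-026 against mdx vehicle and 9.23% in mdx GTx-026 against wildtype. How many genes step down across all 3 groups was not counted. Sesn1 fell by 1.12 on the log2 scale in mdx GTx-026 against wildtype muscle (SE 0.21, 95% interval -1.60 to -0.65, adjusted p = 0.0371, limma). The values of the steps within it were -0.47 (SE 0.21, adjusted p = 0.399) in mdx vehicle against wildtype and -0.65 (SE 0.21, unadjusted p = 0.0127, adjusted p = 1) in mdx GTx-026 against mdx vehicle, comparisons that share the untreated mdx libraries. The call was lost without any 1 wildtype or treated library, at adjusted p values of 0.0769 to 0.143, without mdx vehicle library 3 (0.0507) and under the deposited scaling (log2 fold change -1.01, adjusted p = 0.172).

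Eif4ebp1 encodes 4E-BP1, the repressor that binds the cap-binding protein eIF4E until mTOR phosphorylates it, on chromosome 8 from 27260329 to 27276674. It stood at 51.3, 47 and 39 CPM in wildtype vehicle, 36.2, 47.1 and 47.7 CPM in mdx vehicle and 57.6, 62.7 and 73 CPM in mdx GTx-026. All 3 treated libraries lay above all 6 others, while the ranges of wildtype and untreated mdx muscle overlapped. Of all tested genes 3.67% were higher with no overlap in mdx GTx-026 against mdx vehicle and 11.5% in mdx GTx-026 against wildtype. The share above both groups was not counted. Treated against untreated mdx muscle gave a log2 fold change of 0.55 (SE 0.16, 95% interval 0.19 to 0.92), with an unadjusted p of 0.007 and an adjusted p of 1, and 0.49 against wildtype (SE 0.16, adjusted p = 0.229, limma). It was -0.07 in mdx vehicle against wildtype (95% interval -0.43 to 0.30, adjusted p = 0.877), and 0.11 under the deposited scaling.

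Of the autophagy genes, Map1lc3a had the larger differences. It encodes LC3A, a ubiquitin-like protein that is joined to lipid on the growing autophagosome, and lies on chromosome 2 from 155276297 to 155278073. It stood at 166, 128 and 150 CPM in wildtype vehicle, 155, 284 and 316 CPM in mdx vehicle and 358, 313 and 311 CPM in mdx GTx-026. The treated libraries were all near or above the 2 high untreated mdx libraries, and mdx vehicle library 1 was within the wildtype range. The log2 fold change was 1.14 in mdx GTx-026 against wildtype (SE 0.25, 95% interval 0.58 to 1.70, adjusted p = 0.0628, limma), which missed the threshold. Without mdx vehicle library 1, which is in neither group of that comparison and enters it through the shared estimate of the spread and the rescaling, the log2 fold change was 1.13 and the adjusted p 0.006. In mdx vehicle against wildtype the log2 fold change was 0.70 (SE 0.25, unadjusted p = 0.0189, adjusted p = 0.302), and without library 1 it was 1.02 with an adjusted p of 0.0391. Between the treated and untreated mdx groups it was 0.44 (95% interval -0.12 to 1.00, adjusted p = 1), and 0.11 without that library.

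Bnip3 encodes a mitochondrial outer membrane protein that recruits LC3 during mitophagy, on chromosome 7 from 138890836 to 138909519. It was at 200, 242 and 217 CPM in wildtype vehicle, 113, 274 and 184 CPM in mdx vehicle and 192, 164 and 244 CPM in mdx GTx-026. The untreated mdx libraries held both its lowest and its highest value of the 9. Its log2 fold change was -0.29 (95% interval -0.93 to 0.35) in mdx vehicle against wildtype, and 0.03 without mdx vehicle library 1. An antisense gene, Gm45507, shares 22.3% of its exon bases, and 16.5% of its 50-base words occur in transcripts of other genes, 13.5% in Gm16439, so its level is less certain than the rest.

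**Figure D2:**
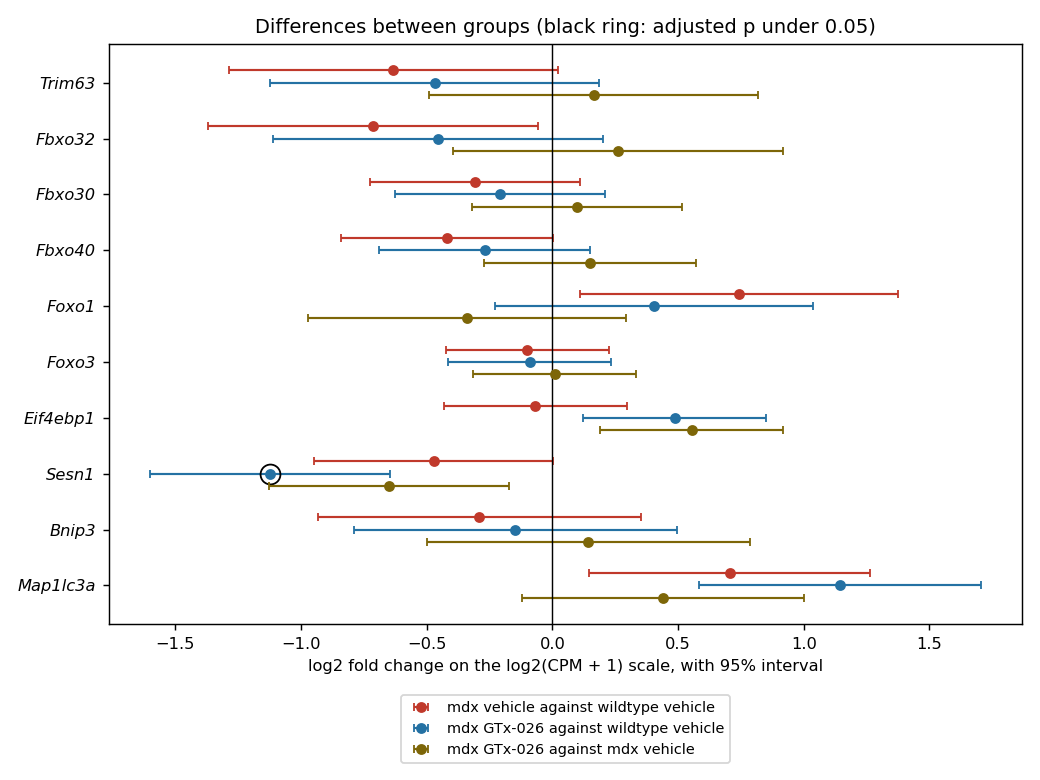
Log2 fold change (horizontal axis) with its 95% interval for each gene in 3 comparisons, marked by colour; the ringed point passed the adjusted threshold of 0.05. The ringed point is Sesn1 in mdx GTx-026 against wildtype at -1.12, and the 4 ligases lie left of 0 against wildtype in both mdx groups.

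The counts of the 10 are given beside those of all tested genes. In mdx vehicle against wildtype 0 of the 10 passed (limma, adjusted p under 0.05), where 0.338% of all tested genes did. At an unadjusted p under 0.05 there were 3, Fbxo32, Foxo1 and Map1lc3a, against 12.7% of all genes. Of the 10, 8 had a lower mean log level in mdx vehicle and 2 a higher one, with a median log2 fold change of -0.30 against 0.009 over all genes, and under the deposited scaling Foxo3 and Eif4ebp1 left the lower side. Fbxo30, Fbxo40 and Sesn1 were lower with no overlap between the groups, as 8.49% of all genes were.

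In mdx GTx-026 against mdx vehicle 0 of the 10 passed (limma), where 0.013% of all genes, 2 in number, did. The 2 at an unadjusted p under 0.05 were Eif4ebp1 and Sesn1, against 3.17% of all genes. Only Eif4ebp1 was higher and only Sesn1 lower with no overlap between the groups, as 3.67% and 3.13% of all genes were. In mdx GTx-026 against wildtype 1 of the 10 passed, Sesn1, on the lower side, where 0.429% of all genes were called lower and 1.48% in either direction. At an unadjusted p under 0.05 there were 3, Sesn1, Map1lc3a and Eif4ebp1, against 12.5% of all genes. Eif4ebp1 and Map1lc3a were higher with no overlap, as 11.5% of genes were, and Sesn1 was lower with no overlap, as 9.23% were.

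When both mdx groups were averaged against wildtype, 0 of the 10 passed (limma), where 1.59% of all genes did. There were 4 at an unadjusted p under 0.05, Fbxo32, Foxo1, Sesn1 and Map1lc3a, against 15.5% of all genes. Sesn1 had a log2 fold change of -0.80 (SE 0.18, adjusted p = 0.0715) and Map1lc3a one of 0.92 (SE 0.22, adjusted p = 0.0737). Sesn1 was the 1 gene of the 10 with no overlap here: all 6 mdx libraries lay below all 3 wildtype libraries, as for 4.27% of all genes.

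The deposited table lists several sequence records for 6 of the 10 genes, and these were also tested singly, a choice made after the records were seen to differ. Sesn1 has 2 records. Record 1 had a log2 fold change of -0.99 (adjusted p = 0.0687, limma) in mdx GTx-026 against wildtype and record 2 one of -1.16 (adjusted p = 0.0255), where 1.34% of 46007 tested records passed. Both records of Map1lc3a had a log2 fold change of 1.15 in that comparison, with adjusted p values of 0.0585 and 0.0487. The 2 records of each gene had like values, and only record 2 passed.

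The 4 records of Fbxo40 did not all carry the same spread. Records 2, 3 and 4 had near-equal levels in every library, each holding 30 to 33.6% of the gene's sum, so a read that fits all of them may have been counted for each. Record 1 held 2.88 to 7.67% of the sum and ran from 7.45 CPM in mdx vehicle library 1 to 35.2 CPM in wildtype library 2. Foxo3 showed the same split: its record 1 ran from 0.509 to 3.7 CPM and record 2 only from 24 to 29.8 CPM. For both genes the low record had its lowest value in mdx vehicle library 1 and its highest in wildtype library 2. Record 1 of Trim63 held 63.2 to 70.9% of that gene's sum, and its records 2 and 3 held 14.3 to 18.7% each.

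In the authors' deposited table Sesn1 stood at 0.534 and 0.467 times the wildtype mean in mdx GTx-026 muscle for its 2 records, and Map1lc3a at 2.35 and 2.38 times. The authors' deposited table gives each of these 4 ratios an unadjusted p under 0.05. Records 3 and 4 of Fbxo40 had an unadjusted p under 0.05 for all 3 pairs of groups in the authors' deposited table, at 0.856 and 0.841 times the wildtype mean in mdx vehicle, 0.905 and 0.897 times it in mdx GTx-026, and 1.06 and 1.07 times the mdx vehicle mean in mdx GTx-026 muscle. In the authors' deposited table record 2 of Fbxo40 was under 0.05 only between the mdx groups, both records of Map1lc3a were also under it for mdx vehicle against wildtype, and the other records of the 10 genes were not under it for any pair. Over all records of the authors' deposited table, 6.01% had a p under 0.05 in mdx vehicle against wildtype. The share was 9.31% in mdx GTx-026 against wildtype and 1.94% between the mdx groups.

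**Figure D3:**
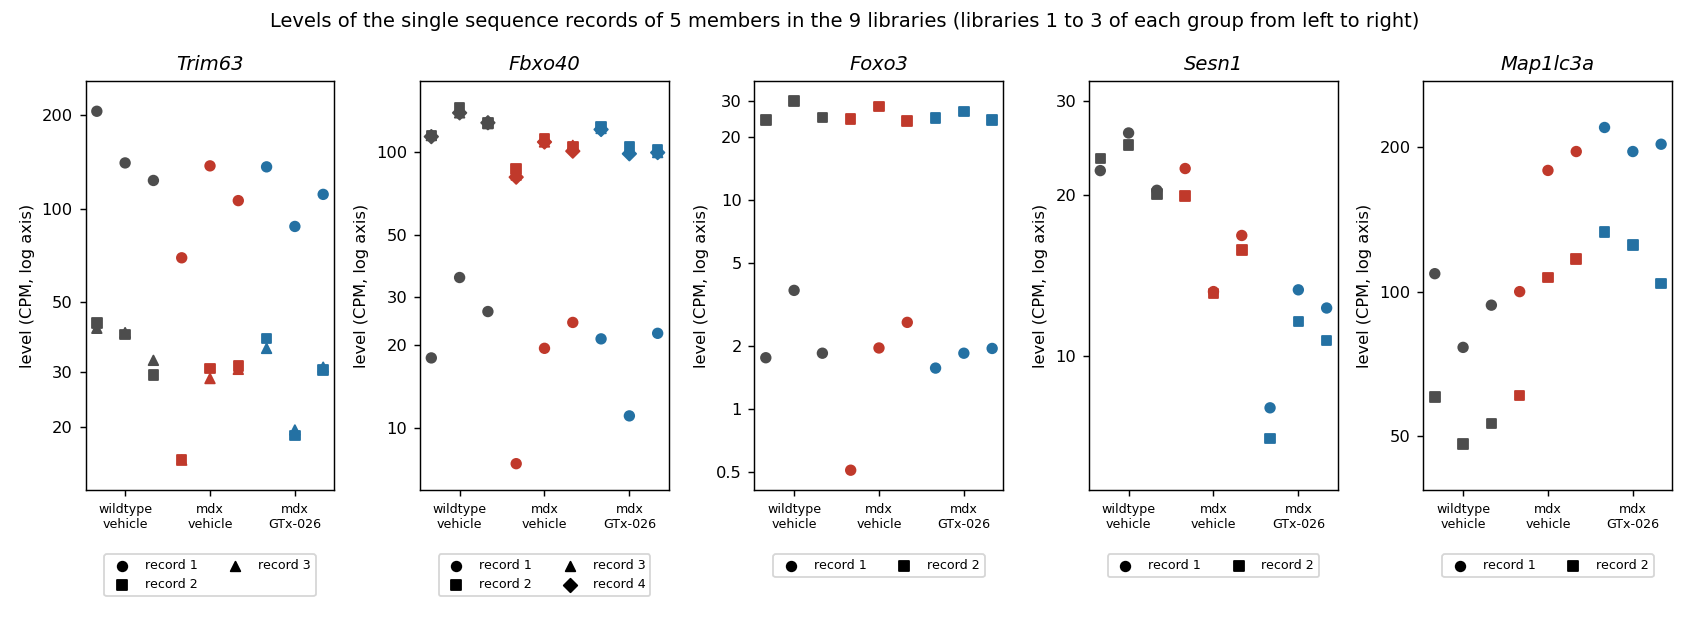
Level in CPM (vertical log axis) of the single sequence records of 5 genes in the 9 libraries, with colours for groups and marker shapes for records. The records of Sesn1 and of Map1lc3a shift together, while record 1 of Fbxo40, from 7.45 to 35.2 CPM, and of Foxo3, from 0.509 to 3.7 CPM, spread more than the others.

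Across the 9 libraries the ligases varied together. Pearson's r of the log2 levels was 0.83 between Trim63 and Fbxo32, 0.91 between Fbxo32 and Fbxo30, and 0.83 between Fbxo32 and Fbxo40. With each group's mean removed the same values were 0.73, 0.85 and 0.68. The other ligase pairs were lower: 0.72 for Trim63 and Fbxo30, 0.77 for Trim63 and Fbxo40, and 0.68 for Fbxo30 and Fbxo40. With the group means removed these were 0.57, 0.61 and 0.47. Bnip3, which is not a ligase, had values of 0.70 to 0.80 with the 4 ligases, and 0.70 to 0.79 with the group means removed. The libraries share their depth, rescaling and tissue makeup across genes, so these are descriptions, with no p. Foxo1 had negative values with all 4 ligases, from -0.64 with Fbxo30 to -0.46 with Trim63. These lay between -0.41 and -0.09 with the group means removed. Foxo3 had positive values with all 4 ligases, from 0.37 with Trim63 to 0.71 with Fbxo40. With the group means removed these lay between 0.23 and 0.72. Sesn1 and Map1lc3a had an r of -0.90, and -0.66 within groups.

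The genes most like Trim63 in their pattern, among 10342 with a mean of at least 5 CPM, were Xirp2 (r = 0.969), an actin-binding protein of striated muscle, Psmd2 (0.960), a subunit of the 19S cap of the proteasome, and Actr1b (0.952), an actin-related protein of the dynactin complex. Those most like Fbxo32 were Ogfod1 (0.944), Mapk8 (0.939), which encodes the stress kinase JNK1, and Zfp652 (0.927). Those most like Foxo1 were Prpf4b (0.946) and Srek1 (0.906), both of the splicing machinery, and Tmem80 (0.897).

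The wider pathway was described by 6 lists of 116 genes, 114 of them tested. In mdx vehicle against wildtype 0 of the 114 passed (limma), beside 0.338% of all tested genes, and 20 (17.5%, beside 12.7%) had an unadjusted p under 0.05. In mdx GTx-026 against mdx vehicle 0 passed, beside 0.013%, and 5 (4.39%, beside 3.17%) were under that value. Against wildtype, mdx GTx-026 muscle had 2 calls, both higher, beside 1.48% of all genes, and 23 (20.2%, beside 12.5%) under it. The average of both mdx groups against wildtype had 1 call, higher, beside 1.59%, and 28 (24.6%, beside 15.5%) under it.

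The calls were Fkbp5 and Nedd4l. Fkbp5, a chaperone of steroid receptors that glucocorticoids and androgens induce, stood at 10.1, 10.7 and 11.9 CPM in wildtype vehicle, 12.7, 56.2 and 25.3 CPM in mdx vehicle and 73.5, 63.3 and 47.6 CPM in mdx GTx-026. It rose by 2.37 on the log2 scale in mdx GTx-026 against wildtype (SE 0.42, adjusted p = 0.0288, limma), and by 1.79 in the average of both mdx groups (adjusted p = 0.0463), a call that was lost at a pseudocount of 5, without mdx vehicle library 3 and without any 1 wildtype or treated library. The step between the mdx groups had a log2 fold change of 1.17 (unadjusted p = 0.02, adjusted p = 1), and 1 untreated library overlapped the treated ones. Nedd4l, a HECT ligase best known for its action on sodium channels, stood at 26.6 ± 0.386 CPM (SD, n = 3) in wildtype vehicle, 37.1 ± 6.87 in mdx vehicle and 48.3 ± 7.55 in mdx GTx-026. It rose by 0.83 in mdx GTx-026 against wildtype (SE 0.16, adjusted p = 0.0423, limma). Each of these calls of mdx GTx-026 against wildtype was lost without any 1 wildtype or treated library, with adjusted p values of up to 0.11 for Fkbp5 and 0.174 for Nedd4l, and that of Nedd4l also without mdx vehicle library 2.

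The remaining lists are given by counts and medians, to be read beside all tested genes. Of these, 51.1% were higher in mdx vehicle than in wildtype, and their median of 0.009 became 0.158 under the deposited scaling. For treated over untreated mdx muscle 51.1% were higher, and the all-gene median of 0.005 became -0.056. Every list median was under the all-gene median in the first comparison. Under the deposited scaling that of translation control was above it, at 0.166 against 0.158, and the others stayed under it. In the second comparison the median of the FoxO targets list was below the all-gene median and the others were above it, in both scalings. Of the 19 genes from the insulin and IGF receptors to Akt and mTOR, 18 had a lower mean log level in mdx vehicle than in wildtype, with a median of -0.26 that became -0.08 under the deposited scaling, and 0 passed (limma). The nearest to the threshold there was Pik3ca, a catalytic subunit of PI3 kinase, at 57.2 ± 4.77 CPM in wildtype and 43.6 ± 1.14 in mdx vehicle (SD, n = 3; log2 fold change -0.38, adjusted p = 0.301). Rictor, which defines mTOR complex 2, had a log2 fold change of -0.71 in mdx GTx-026 against wildtype (adjusted p = 0.117). Of 24 autophagy genes 19 had a lower mean in mdx vehicle (median -0.13, and 0.05 under the deposited scaling), among them the initiating kinase Ulk1 at -0.57 (adjusted p = 0.271) and the mitophagy receptor Bnip3l at -0.28 (adjusted p = 0.357). Tfeb, the transcription factor of lysosome genes, stood at 78.4 ± 4.02 CPM in wildtype and 51.3 ± 10.6 in mdx GTx-026 (log2 fold change -0.62, adjusted p = 0.152).

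The list of FoxO targets held 16 tested genes, among them the FoxO factors Foxo4 and Foxo6. Of the 16, 9 had a lower and 7 a higher mean in mdx vehicle than in wildtype. The median was -0.16, and -0.01 under the deposited scaling. Foxo4, at -0.38, and Foxo6, at -0.19, were on the lower side. In mdx GTx-026 against mdx vehicle 11 had a lower and 5 a higher mean. The median there was -0.10, and -0.17 under the deposited scaling. In mdx vehicle against wildtype the differences were uneven. The widest differences were on the higher side. Cdkn1a, the cell cycle inhibitor p21, was at 22.6, 12.5 and 18.7 CPM in the wildtype libraries, 37.6, 35.4 and 77.4 CPM in mdx vehicle and 35.3, 37.4 and 39.5 CPM in mdx GTx-026. Its log2 fold change was 1.38 (SE 0.30, adjusted p = 0.119) in mdx vehicle against wildtype and 1.22 (adjusted p = 0.0532) in the average of both mdx groups. Ddit4, or REDD1, which restrains mTOR, was at 5.18 ± 0.999 CPM in wildtype, 26.3 ± 20.4 in mdx vehicle and 23.3 ± 7.75 in mdx GTx-026, with a log2 fold change of 1.87 (adjusted p = 0.19) in mdx vehicle against wildtype. Klf15, a glucocorticoid-responsive factor of amino acid catabolism, was at 63 ± 10, 52 ± 15.3 and 34.5 ± 2.05 CPM in the 3 groups, with a log2 fold change of -0.84 (adjusted p = 0.111) in mdx GTx-026 against wildtype.

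Of the 19 other ubiquitin ligases, 17 had a higher mean log level in mdx GTx-026 than in mdx vehicle, with a median of 0.08 that was 0.01 under the deposited scaling, and 0 passed (limma). In mdx vehicle against wildtype 13 of the 19 had a lower mean (median -0.07, and 0.11 under the deposited scaling). Trim55, or MuRF2, the close relative of MuRF1, was at 93.3 ± 15.6 CPM in wildtype, 67.4 ± 3.49 in mdx vehicle and 60.6 ± 9.83 in mdx GTx-026, with a log2 fold change of -0.45 (adjusted p = 0.312) in mdx vehicle against wildtype. Asb2, which targets filamins and desmin in muscle, had one of -0.88 (adjusted p = 0.315). Translation control had 11 of 14 genes higher in mdx GTx-026 than in mdx vehicle, with a median of 0.17 that became 0.10 under the deposited scaling. Among the upstream regulators, Mstn, the growth inhibitor myostatin, was at 33.4, 56.6 and 58.8 CPM in the wildtype libraries and at 22.4, 21.6 and 21.4 CPM in mdx vehicle, with no overlap and a log2 fold change of -1.11 (SE 0.24, adjusted p = 0.118, limma). In that comparison 8.49% of all tested genes were lower with no overlap. Mstn was at 38.8, 24.4 and 26.1 CPM in mdx GTx-026 muscle, above all untreated mdx libraries, as 3.67% of all tested genes were. Its log2 fold change between the mdx groups was 0.40, and it did not pass (limma).

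**Figure D4:**
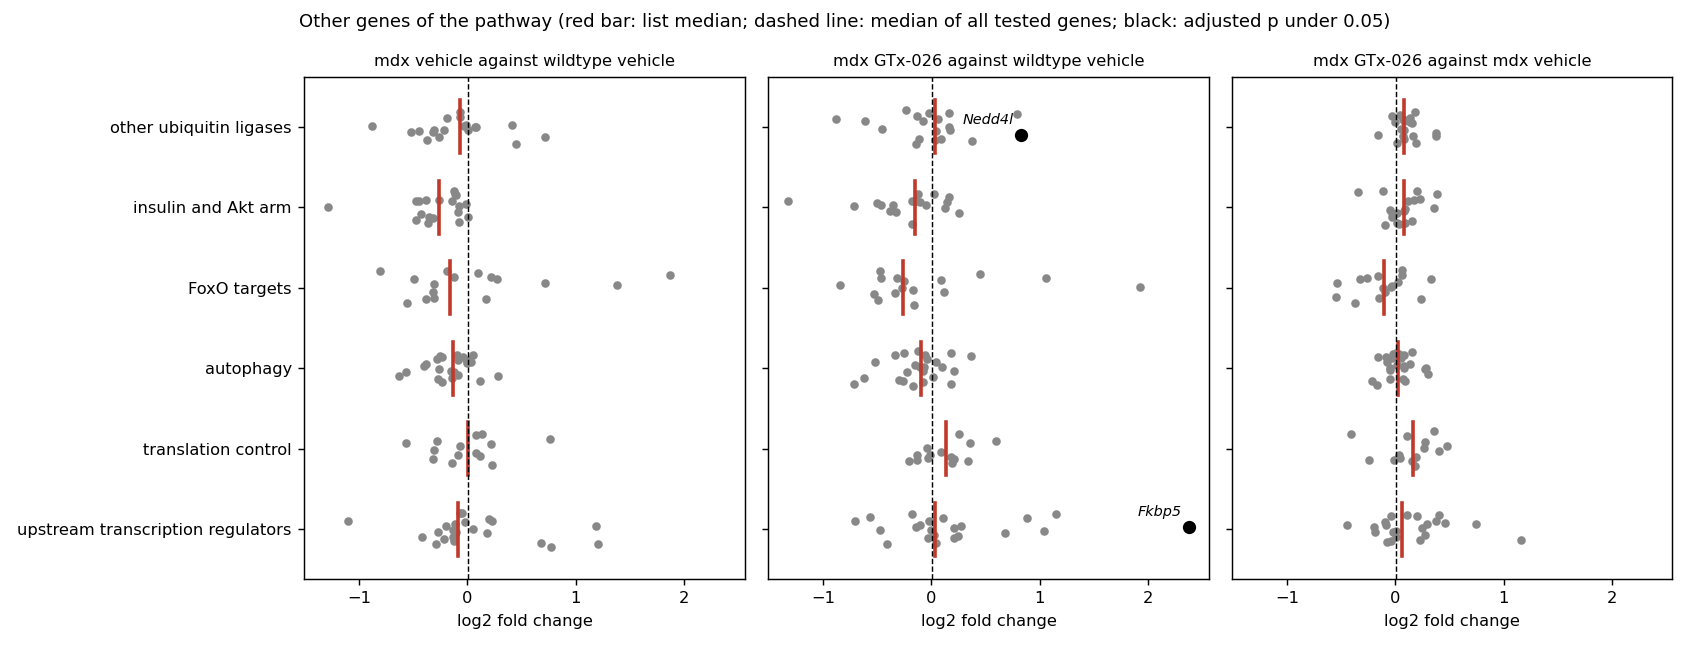
Log2 fold change (horizontal axis) of each tested gene of the 6 pathway lists in 3 comparisons; red bars are list medians, the dashed line the median of all tested genes, and black points the genes past the adjusted threshold of 0.05. Only Nedd4l at 0.83 and Fkbp5 at 2.37 in mdx GTx-026 against wildtype are black, and the insulin and Akt list lies mostly left of the dashed line in mdx vehicle against wildtype.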

How the data were processed

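For every sequence record and library the authors deposited a signal, which is a scaled number of reads. Per the submitters' processing notes, the build was GRCm38.p3 and the tools were DESeq2 1.6.3, HTSeq 0.6.1p1, SAMtools 0.1.19, Bowtie2 2.2.4 and TopHat2 2.0.13, whose roles are not given in the sources used here. Means per group, and a ratio and a p-value per pair of groups, stand beside it, per the file headers. All per-sample columns were used, each assigned to its group by name.

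The members and gene lists were chosen with earlier results of these data known. The signal of a library lay within 0.1 read of whole multiples of 1 step, below a signal of 10000, which gave the estimated reads. The smallest signal above 0 was 10, and 431 records were at 0 in at least 1 library, so low values may have been set to 0. Records above 0 in all 9 libraries were summed by symbol, which kept 99.98% of the deposited total, and 4 records without a symbol (0.000646% of it) were left out. Libraries were divided by their total and rescaled by an unweighted trimmed mean of log ratios (30% of ratios and 5% of levels trimmed, factors 0.874 to 1.3). limma 3.58.1 in R 4.3.3 was fitted to log2(CPM + 1) of all 9 libraries with a trended prior (6 residual and 3.54 prior degrees of freedom). Benjamini-Hochberg adjustment of two-sided p-values ran over the 15372 genes of a comparison (threshold 0.05), and fold changes on this scale understate those of low genes. The script was tested on simulated data. Named beside the members were list genes past the threshold, up to 3 a list and comparison, or, where none passed, up to 2 with the smallest p. Of those without a call only some are printed, and the genes most like Trim63, Fbxo32 and Foxo1 were taken by r. Positions are from GENCODE M21 on GRCm38. Alternatives were other pseudocounts (0.1 and 5), no rescaling, all records summed, a 1 CPM minimum, the compared groups only, no prior trend, each library left out, and single records.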

Additional observations from a re-analysis of the deposited data

How the results depend on the processing

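No paired analysis was possible because the labels number the samples through all groups and share no number between them. The precision is limited by 3 libraries a group. With 1 library left out in turn, the number of genes past the threshold ran from 5 to 93 in mdx vehicle against wildtype (52 as reported), 0 to 2 in mdx GTx-026 against mdx vehicle (2), 45 to 374 in mdx GTx-026 against wildtype (227) and 39 to 388 for the average of both mdx groups (244). With all records summed and every symbol tested these counts were 332, 96, 509 and 624, and with only the compared groups in the model 5, 1 and 421 for the first 3. For mdx GTx-026 against mdx vehicle the count was 1 at a pseudocount of 5 and 4 under the deposited scaling. That scaling moved the median of all genes to 0.158, -0.056, 0.095 and 0.126 in the 4 comparisons and the share of genes on the higher side from 51.1 to 72.2%, 51.1 to 38.2%, 50.4 to 65.9% and 50.6 to 70.9%. Calls split into 28 higher and 10 lower under it, against 29 and 23 as reported, in mdx vehicle against wildtype, 187 and 43 against 161 and 66 in mdx GTx-026 against wildtype, and 203 and 52 against 149 and 95 in the average. The cause of these moves was not tested.

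Sesn1 in mdx GTx-026 against wildtype kept its direction in all 18 alternatives (-1.24 to -0.92) and its call in 9, with adjusted p from 0.0204 to 0.172. Map1lc3a in that comparison passed in 6 of 18 (1.04 to 1.26, adjusted p from 0.006 to 0.229). Trim63 and Fbxo32 passed in none of the alternatives run in any comparison. Under the deposited scaling Foxo3 turned to 0.078 in mdx vehicle against wildtype, -0.059 in mdx GTx-026 against mdx vehicle, 0.019 in mdx GTx-026 against wildtype and 0.049 for the average, and Eif4ebp1 to 0.11 in the first. In mdx GTx-026 against mdx vehicle Foxo3 was at -0.003 with only the compared groups and at -0.014 for record 2, and Fbxo30 was at -0.039 for record 3. Leaving out 1 library gave ranges across 0 in mdx vehicle against wildtype for Eif4ebp1 (-0.18 to 0.057), Foxo3 (-0.18 to 0.023) and Bnip3 (-0.60 to 0.034). It did so in mdx GTx-026 against mdx vehicle for Trim63 (-0.14 to 0.38), Fbxo30 (-0.06 to 0.22), Fbxo40 (-0.015 to 0.23), Foxo3 (-0.075 to 0.084) and Bnip3 (-0.19 to 0.45), and for Foxo3 against wildtype in mdx GTx-026 (-0.19 to 0.032) and in the average of both mdx groups (-0.19 to 0.028).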

Other observations

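Armc2, which lies next to Sesn1 on chromosome 10 from 41914990 to 42018442, was chosen after its values were seen: among 10342 genes it had the highest Pearson's r with Sesn1 over the 9 libraries, 0.933. Its level was 9.38, 9.56 and 8.84 CPM in wildtype vehicle, 12.1, 6.58 and 7.13 CPM in mdx vehicle and 3.57, 5.51 and 5.76 CPM in mdx GTx-026. Its highest value was in mdx vehicle library 1, where Sesn1 was also highest among the mdx libraries. All 3 treated libraries lay below the 6 others. Of all tested genes 3.13% were lower with no overlap in mdx GTx-026 against mdx vehicle and 9.23% in mdx GTx-026 against wildtype. The share below both groups was not counted. Tbc1d4, a substrate of Akt in glucose uptake, followed at an r of 0.915.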
